A study of Mus musculus with 9 samples.

Results

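Enzymes that remove superoxide and peroxides, build and recycle glutathione, reduce quinones and cleave haem were followed in the jejunum of single mice. The set held 10 genes (Sod1, Cat, Gpx1, Gpx2, Gpx4, Gclc, Gsr, Txnrd1, Nqo1 and Hmox1) of the 15961 named on the array. It took every probe whose gene symbol equalled one of these names, which gave 13 of the 33012 probes. Each of the 9 arrays was hybridized with RNA from the jejunum of a single male mouse (outbred OF1, 7 weeks of age, generation 3 of a feeding trial), and feeds B, K and G had 3 mice each. All mice shared sex, age, housing and tissue, no feed was named as a control, and the sources used here did not say what the letters stood for. The hour at which each mouse was sampled is not known. The tissue was a short whole-wall segment around the midpoint of the small intestine, so that a lower signal could mean fewer cells of a type or less RNA per cell, which cannot be told apart in such samples.

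Superoxide formed by respiration is turned into hydrogen peroxide by superoxide dismutases such as Sod1. Catalase (Cat) breaks the peroxide down in peroxisomes, whereas the glutathione peroxidases (Gpx1 in the cytosol of most cells, Gpx2 in the gut epithelium, and Gpx4, which acts on lipid peroxides in membranes) spend reduced glutathione on it. Glutathione is supplied by glutamate-cysteine ligase, of which Gclc is the catalytic subunit, and is regenerated from its oxidized form by glutathione reductase (Gsr). Txnrd1 keeps thioredoxin reduced, Nqo1 reduces quinones, and Hmox1 cleaves haem. Gpx1, Gpx2, Gpx4 and Txnrd1 are selenoproteins. The transcription factor Nrf2 (gene Nfe2l2), which the adaptor Keap1 holds in check, is known to drive several of these genes through antioxidant response elements. The small intestine meets dietary oxidants directly, and the study sought genes with uniform levels over jejunal samples, Gsr among its candidates. The arrays used here were part of the data from which it chose them. In its RT-qPCR over several mouse strains, Gsr varied by more than 2-fold.

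All members but 1 were well above background in every mouse, and the level of Hmox1 lay near or below background. A gene was taken as detected on an array when a probe reached a signal-to-noise ratio of 3, and 9 of the 10 members were detected on all 9 arrays, whereas Hmox1 was detected on 3. No member spot carried a failed flag. Gpx2, Sod1 and Gpx4 had a pair of probes each. Those of Gpx2 followed each other closely over the mice (Pearson's r = 0.994), and both were detected on all 9 arrays. In Sod1 and Gpx4 the brighter probe was detected on all 9 arrays, but the dimmer probe was detected on 1 array for Sod1 and on 0 arrays for Gpx4, with a median signal-to-noise ratio of 0.47 and 1.20. The mean over the probes of these genes therefore averaged a measured signal with one at the background, and their brighter probe is given beside it. Over the whole array, the share of detected probes was 36.7%, 33.7% and 43.6% on feed B (mice 7, 8 and 10) and between 41.2% and 48.1% for the others. Markers of enterocytes were present throughout, since all 8 that could be measured passed on every array, with a 1.65-fold range of their summed signal, and 3 of the 4 measured pancreas acinar genes were detected on no array.

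As context for the shared regulation of the family, the core letters of the antioxidant response element (TGACNNNGC, on either strand) were searched in RefSeq promoter windows of GRCm38.p6 that run from 250 bases before to 50 bases after a start site. The table held 12 windows of 7 members, while Hmox1, Gclc and Gsr were not in it. A match stood in 2 of the 12 windows, against 12.4% of all 32851 windows. The capitals begin 92 bases before a start site of Txnrd1 (chr10:82859104-82859132, plus strand shown) and 56 bases before that of Sod1 (chr16:90220696-90220724, plus strand shown). They mark the motif, which reads on the minus strand in both, and no array value tests whether it is used.
Txnrd1: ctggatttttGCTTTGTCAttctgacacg
Sod1: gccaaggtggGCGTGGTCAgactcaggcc

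The feeds were compared first. None of the 10 genes was called between feeds, in the test over all 3 feeds or in any pair of feeds. With limma's moderated F test, 0 of the 10 members passed at an adjusted p of 0.05, and so did 0% of the 9856 genes tested. Adjusted p-values of the members ran from 0.886 for Sod1 to 0.996 for Cat. At an unadjusted p under 0.05, 0 members and 5.45% of all genes passed the F test. Of the 30 differences between pairs of feeds, 1 had an unadjusted p under 0.05, namely a lower mean of the Sod1 probes on feed G than on feed B, while 1.89% of all genes were lower by that rule. Counted in both directions, 5.78% of all genes passed between these feeds. No member passed in the comparison of feed K with feed B, where 6.50% of all genes did, or of feed G with feed K, where 4.69% did. For no member did the mice of any pair of feeds fall into ranges that did not overlap, whereas 10.0%, 10.9% and 13.8% of genes did so for feeds K and B, G and B, and G and K. With 3 mice per feed the 95% intervals were wide. A missed threshold does not show that the feeds act alike.

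**Figure D1:**
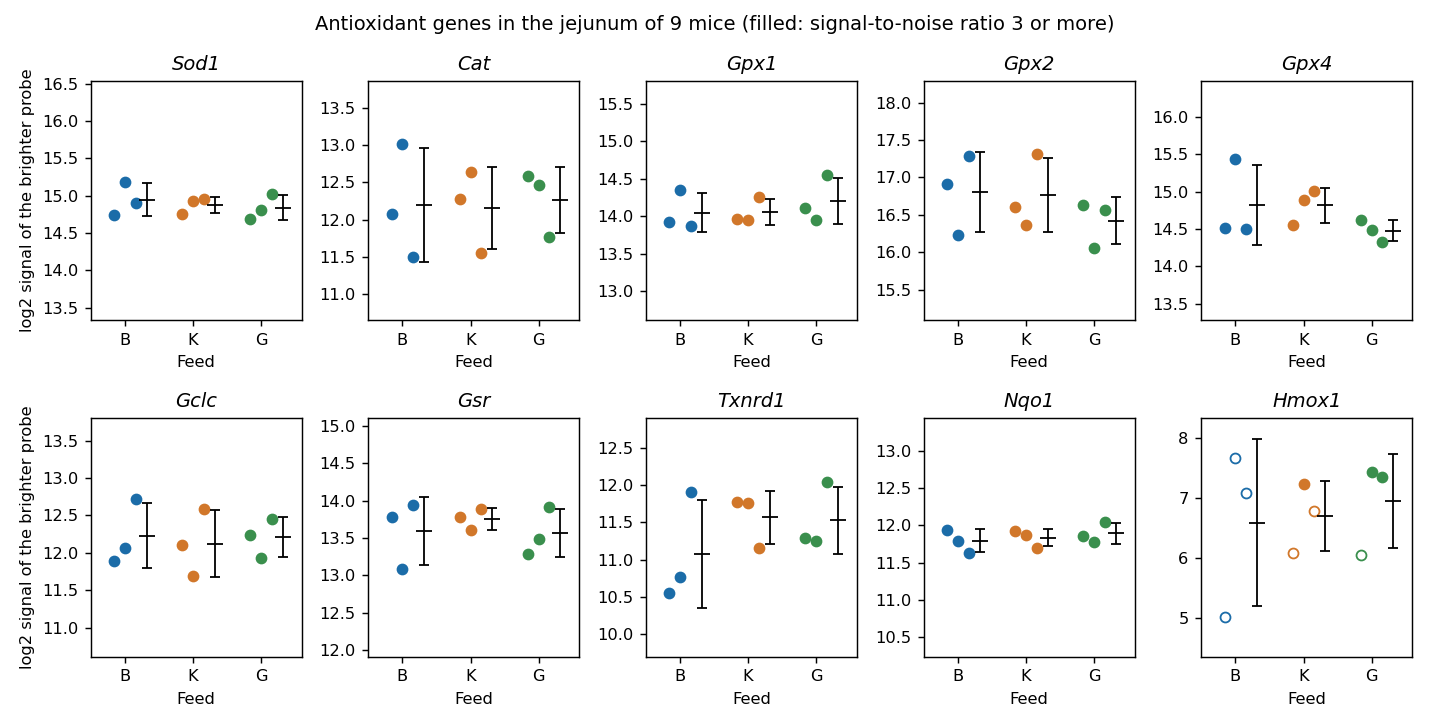
Log2 signal of the brighter probe of each gene by feed, 1 point per mouse (open where the signal-to-noise ratio was under 3), with the mean and SD of the 3 mice as the black mark and bar. All panels span the same number of log2 units except that of Hmox1, which spans more. The mice of the 3 feeds overlap in every panel, and Nqo1 and Sod1 stay within a narrow band while Cat and Txnrd1 do not.

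Superoxide removal was represented by Sod1, the cytosolic copper-zinc dismutase (chr16:90220762-90226333). Its brighter probe gave a log2 signal of 14.74, 15.18 and 14.91 in mice 7, 8 and 10 of feed B, 14.76, 14.93 and 14.95 in mice 1, 3 and 4 of feed K, and 14.69, 14.81 and 15.02 in mice 4, 8 and 11 of feed G. These values were close to each other on every feed, and the groups overlapped. The dimmer probe, at 7.68, 5.87 and 6.75 on feed B, 7.04, 6.21 and 5.94 on feed K and 5.58, 5.41 and 6.06 on feed G, had its lowest mean on feed G and was detected on 1 array, that of mouse 7 of feed B. The mean of the probes was 0.59 lower on feed G than on feed B on the log2 scale (SE 0.24, 95% interval -1.15 to -0.04, limma's adjusted p = 0.857). With the brighter probe alone the difference was -0.11 (95% interval -0.54 to 0.32, adjusted p = 0.940), so the size of the first value came from a probe at the background.

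Among the genes of peroxide removal, Cat, Gpx2 and Gpx4 varied more from mouse to mouse than from feed to feed. Cat (chr2:103453904-103485153) had a log2 signal of 12.08, 13.01 and 11.49 in mice 7, 8 and 10 of feed B, 12.27, 12.63 and 11.55 in mice 1, 3 and 4 of feed K, and 12.58, 12.46 and 11.76 in mice 4, 8 and 11 of feed G. Each feed thus held a mouse with low catalase, and the feed means lay within 0.11 of each other (feed G minus feed K 0.11, 95% interval -0.90 to 1.13). The highest signal of Cat was 2.87-fold the lowest.

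Gpx1 (chr9:108339080-108340342), the ubiquitous glutathione peroxidase, was at 13.92, 14.34 and 13.87 on feed B, 13.96, 13.95 and 14.26 on feed K, and 14.11, 13.95 and 14.55 on feed G. One mouse of each feed (8, 4 and 11) stood somewhat above the others, and the difference between feeds G and B was 0.16 (95% interval -0.38 to 0.69). Gpx2 (chr12:76792335-76795554), the epithelial form, was at 16.84, 16.24 and 17.22 on feed B, 16.58, 16.30 and 17.30 on feed K, and 16.61, 16.05 and 16.54 on feed G as the mean of its probes. Mice 10 of feed B and 4 of feed K were highest, and these are the mice in which Cat was lowest. The difference between feeds G and B was -0.37 (95% interval -1.16 to 0.42). The brighter probe of Gpx4 (chr10:80047166-80056439), the enzyme for lipid peroxides, gave 14.51, 15.43 and 14.50 on feed B, 14.56, 14.89 and 15.00 on feed K, and 14.62, 14.49 and 14.33 on feed G. Mouse 8 of feed B was the highest, and the other mice of feed B lay among those of feed G (feed G minus feed B -0.34, 95% interval -0.99 to 0.31).

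Of the genes that make and recycle reduced thiols, Gclc (chr9:77754535-77794489) was at 11.90, 12.07 and 12.73 on feed B, 12.10, 11.69 and 12.58 on feed K, and 12.24, 11.93 and 12.45 on feed G. As for Gpx2, mice 10 of feed B and 4 of feed K were highest, and the largest difference was -0.11 for feed K against feed B (95% interval -0.82 to 0.61). Gsr (chr8:33653238-33698162) was at 13.77, 13.08 and 13.94 on feed B, 13.78, 13.60 and 13.89 on feed K, and 13.28, 13.49 and 13.91 on feed G. Mouse 8 of feed B was lowest, the other mice lay between 13.28 and 13.94, and feed G minus feed K was -0.19 (95% interval -0.82 to 0.44). For Txnrd1 (chr10:82833951-82897724) the signals were 10.56, 10.77 and 11.91 on feed B, 11.78, 11.76 and 11.16 on feed K, and 11.29, 11.25 and 12.04 on feed G. Mice 7 and 8 of feed B lay below all mice of the other feeds, while mouse 10 of feed B was higher than every mouse but 11 of feed G. Feed K exceeded feed B by 0.49 (95% interval -0.43 to 1.40) and feed G exceeded it by 0.45 (95% interval -0.47 to 1.36), with an adjusted p of 0.903 in limma's F test. Without mouse 10 of feed B the difference of feed K was 0.90 (limma's adjusted p = 0.343). The arrays of mice 7 and 8 of feed B also had the smallest shares of detected probes, and over the 9 arrays this share had an r of 0.69 with Txnrd1; its part in the result was not tested.

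The quinone reductase Nqo1 (chr8:107388225-107403205) was the steadiest member after quantile normalization. Its log2 signal was 11.94, 11.80 and 11.64 on feed B, 11.92, 11.88 and 11.70 on feed K, and 11.86, 11.78 and 12.05 on feed G. All 9 mice lay within a 1.33-fold range, and the difference between feeds G and B was 0.10 (95% interval -0.30 to 0.51). Hmox1 (chr8:75093618-75100593), the inducible haem oxygenase, reached a signal-to-noise ratio of 3.40 in mouse 3 of feed K and of 4.43 and 6.18 in mice 8 and 11 of feed G, and stayed between 0.11 and 2.66 in the others. Its log2 signals were 5.02, 7.67 and 7.09 on feed B, 6.07, 7.24 and 6.79 on feed K, and 6.05, 7.45 and 7.36 on feed G. The highest of these values, in mouse 8 of feed B, was itself not above background, so the signals have no order between detected and undetected mice. Hmox1 was thus not well above background on any array of feed B, on 2 of 3 arrays of feed K and on 1 of 3 of feed G. Its differences between feeds, drawn below and followed under the alternatives, are of signals near the background and are not read as folds.

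**Figure D2:**
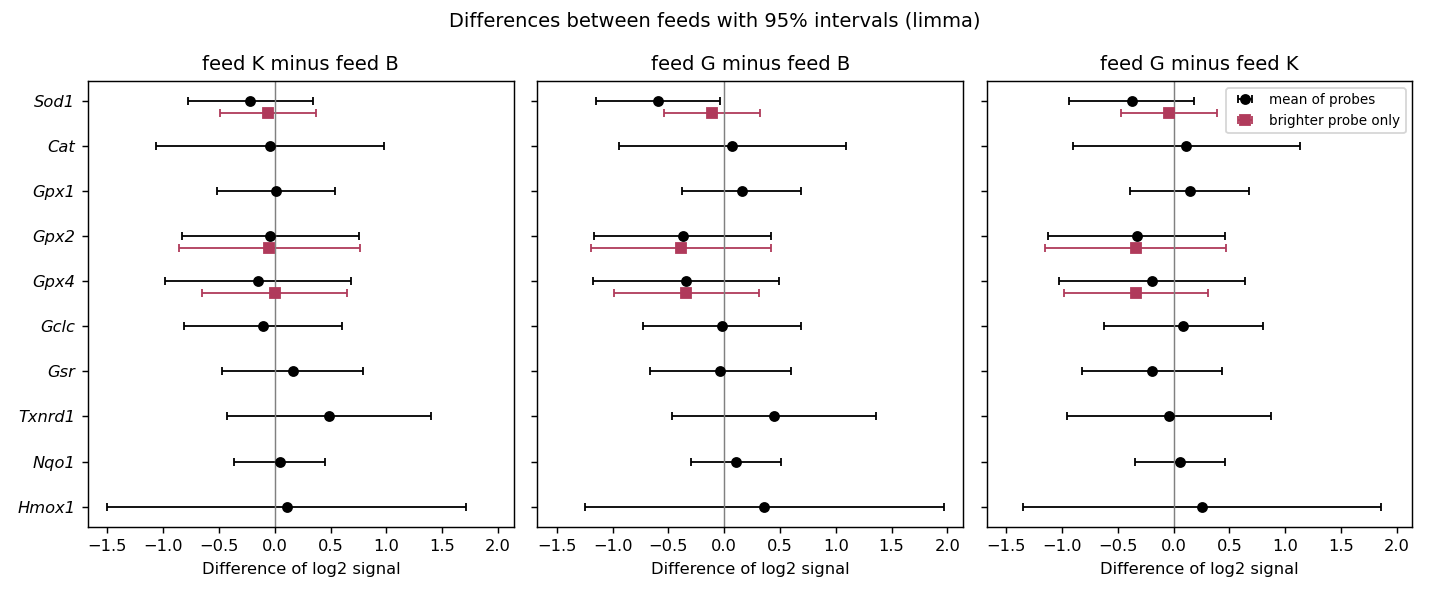
Difference of log2 signal between pairs of feeds with 95% intervals from limma, from the mean of the probes (black circles) and from the brighter probe alone (red squares, drawn for Sod1, Gpx2 and Gpx4). The interval of every brighter probe and of every member but Sod1 on feed G against feed B includes 0, and the Sod1 interval of -1.15 to -0.04 moves to -0.54 to 0.32 with the brighter probe.

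Uniformity over the 9 mice, which the study asked of reference genes, differed widely within the set. Nqo1 had an SD of log2 signal of 0.13, smaller than all but 3.92% of the 5992 genes detected on all 9 arrays. Gpx1 followed with 0.23 and a 1.60-fold range, then Gsr with 0.30 and a 1.81-fold range, near the middle of all genes (51.8% had a smaller SD). Gclc (SD 0.34), Gpx2 (0.43), Txnrd1 (0.52) and Cat (0.52) ranged over 2.05-, 2.38-, 2.79- and 2.87-fold. For Txnrd1 85.4% and for Cat 85.8% of genes were steadier. Sod1 and Gpx4 had an SD of 0.35 and 0.44 as the mean of their probes, and of 0.16 and 0.34 with the brighter probe, where Sod1 ranged over 1.41-fold and 10.6% of genes were steadier.

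As a group, the 9 members detected everywhere spread somewhat more than the median gene after quantile normalization, which is given as a description with no test. Their median SD was 0.35, against 0.29 over all genes, and 3 of the 9 (33.3%) stayed within a 2-fold range, against 57.7% of all genes. With the brighter probe 4 of the 9 (44.4%) did so, against 60.5% of all genes, and the median SD was 0.34, against 0.28. Under the other scalings the members lay close to all genes: the median SD was 0.45 after median scaling, against 0.44 over all genes, and 0.39 in the deposited values, where 50.6% of genes had a smaller SD. The order at the steady end depended on the normalization. With median scaling of each array, instead of quantile normalization, Nqo1 ranged over 2.22-fold and 41.0% of genes were steadier, and in the values as deposited it ranged over 2.01-fold with 39.7% steadier. Cat and Txnrd1 remained the most variable pair of members under these normalizations, with 80.6% and 94.3% of genes steadier after median scaling and 87.3% and 92.8% in the deposited values.

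**Figure D3:**
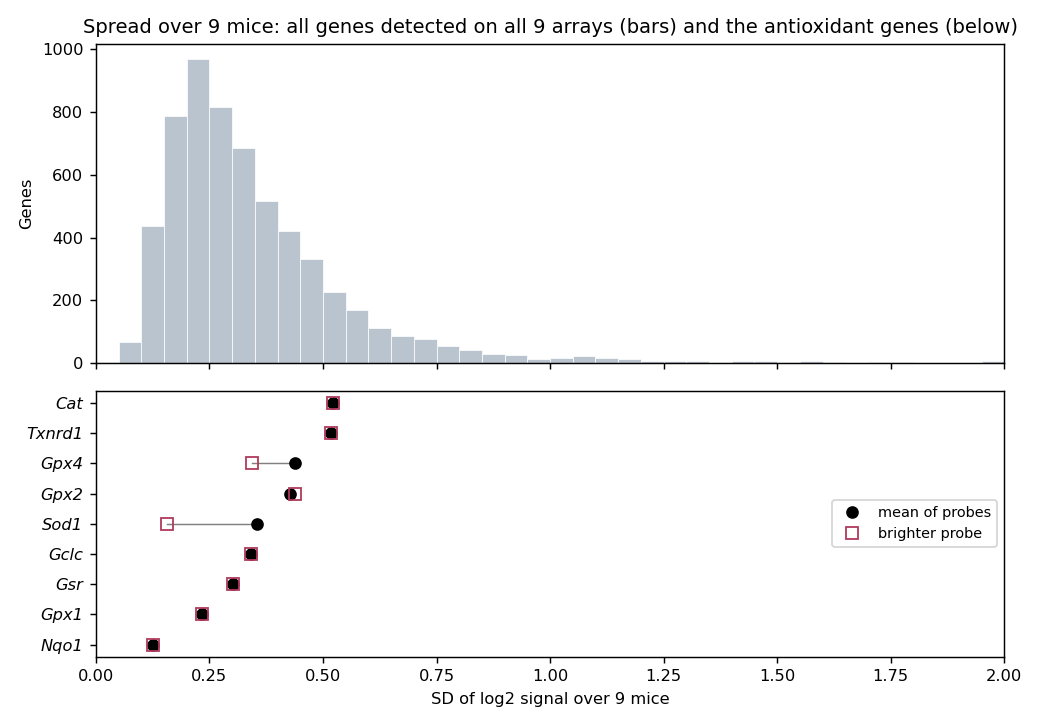
Top, histogram of the SD of log2 signal across mice for the 5992 genes that every array detected (the last bar also holds higher values). Below, on the same axis, the SD of each of the 9 members detected on all 9 arrays, from the mean of its probes (circles) and from the brighter probe (squares), from 0.13 for Nqo1 to 0.52 for Cat.

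How far the members moved together over the mice depended on the scaling. After quantile normalization, among the 36 pairs of the 9 members, Pearson's r ran from -0.91 to 0.73 with a median of 0.01, and 18 pairs were positive. In the deposited values 23 pairs were positive with a median of 0.15, and after median scaling 27 with a median of 0.30. With quantile normalization 1 pair passed: Cat was high where Gsr was low (r = -0.907, exact permutation p = 0.000446, adjusted over the 36 pairs 0.0161; Spearman's rho -0.917, exact permutation p = 0.00131, adjusted 0.0472). Mouse 8 of feed B had the highest Cat and the lowest Gsr, and mice 10 of feed B and 4 of feed K had the lowest Cat with high Gsr. Without the 2 mice farthest from the median of Cat, r was -0.835, and with feed means subtracted it was -0.928. The exact permutation p within feeds was then 0.00463, the smallest that 3 mice per feed can give, and 0.167 once adjusted, so no single pair could pass that test. The relation was lost under the other scalings: r was -0.05 (adjusted p = 0.961, exact permutation test) when each array was scaled to its median and -0.19 (adjusted p = 0.850, exact permutation test) in the values as deposited. Of the 3 normalizations run, the pair thus passed with quantile normalization alone.

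**Figure D4:**
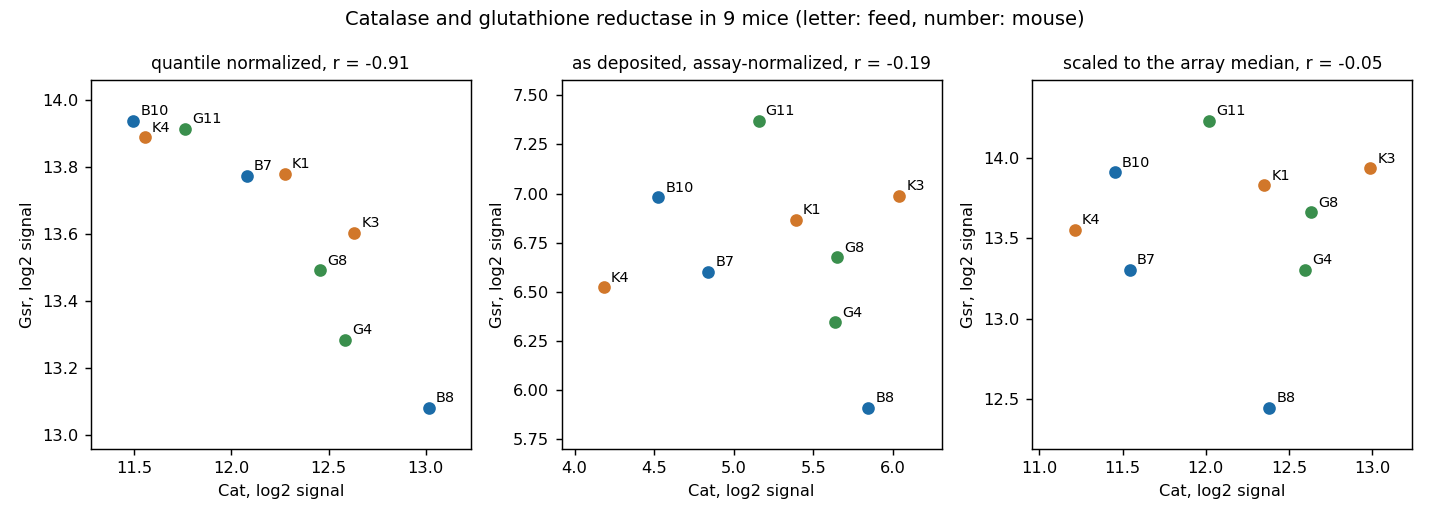
Log2 signal of Gsr against that of Cat in the 9 mice, 1 labelled point per mouse coloured by feed, after quantile normalization, in the deposited assay-normalized values and after scaling each array to its median. The points fall along a line in the first panel (r = -0.91) and scatter in the others (r = -0.19 and -0.05); the axes of the panels differ in their units and range.

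Cat and Gpx2, which both remove hydrogen peroxide, had an r of -0.82 (exact permutation p = 0.00789, adjusted 0.142), and the value was -0.81 in the deposited values and -0.55 after median scaling, without passing under any of them. Cat and Gclc (r = -0.75) and Gpx2 and Gclc (r = 0.73) had an adjusted p of 0.237 by the exact permutation test, and the second fell to 0.27 without the 2 mice farthest from the median of Gpx2. For Cat and Gclc r was -0.13 after median scaling and -0.28 in the deposited values, and for Gpx2 and Gclc it was 0.76 and 0.47. After median scaling 6 of the 36 pairs passed by Pearson's r, with the highest r between Txnrd1 and Nqo1 (0.876, exact permutation p adjusted 0.0364) and between Gsr and Txnrd1 (0.868, exact permutation p adjusted 0.0178). By Spearman's rho only 1 pair passed there, Gsr and Txnrd1 (0.967, exact permutation p adjusted 0.00595). Txnrd1 and Nqo1 did not (rho 0.850, exact permutation p adjusted 0.0547). Neither pair passed in the deposited values, where they had r = 0.761 and 0.804. The share of all gene pairs on the array that would pass was not computed. After median scaling the median difference of all tested genes was 0.40 (K less B) and 0.53 (G less B), and the part of this shift in the pairs was not tested.

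Markers of other parts of the gut moved with some members and are given as descriptions over the 9 arrays, which share tissue and labelling. The 9 members were each set against every marker list, and only some of the values are given. The summed signal of 5 ileal genes ranged over 21.1-fold, and its ileal bile acid binding protein Fabp6 was at 15.81, 4.67 and 17.84 on feed B, 8.92, 12.19 and 11.81 on feed K, and 8.10, 8.96 and 19.51 on feed G. Mice 7 and 10 of feed B and 11 of feed G thus had the highest ileal signal, and every array detected 2 of the 5. Against the log2 sum of this list Cat had r = -0.65 and Gsr r = 0.63. Values of similar size, -0.71 for Cat and 0.61 for Gsr, were found with the 2 measured red cell genes. The sum of the 3 measured genes of the proximal small intestine ranged over 5.56-fold, with r = 0.66 for Cat and r = -0.70 for Gsr. Adh1 made up most of that sum, and Slc40a1 ran against it, with its highest signals (10.17, 10.11 and 10.43) in mice 7 and 10 of feed B and 11 of feed G, where Adh1 was lowest (13.78, 13.14 and 13.12). For Gpx1, the log2 sum of the 3 measured Paneth cell genes, which ranged over 10.8-fold and was lowest in mouse 11 of feed G, had r = -0.88, and each of the 3 genes was lowest in that mouse. The summed signal of the 4 measured goblet cell genes ranged over 1.14-fold, with r = 0.84 for Gpx1. Tff3 was the brightest of them, and the genes did not all follow Gpx1. In mouse 8 of feed B, where Gpx1 was high, Tff3 and Spink4 were high (17.20 and 16.52) but Clca1 was lowest (8.99). Agr2 was highest (15.96) in mouse 10 of feed B, where Gpx1 was lowest. With the T cell and macrophage lists Gpx1 had r = -0.80 and -0.79, so values of this size were not limited to the Paneth list. No T cell gene was detected on all 9 arrays, and Spearman's rho was -0.53 there. Lyz2 made up most of the macrophage sum and was also lowest in mouse 11 of feed G (15.63). Adgre1 of the same list went the other way, at 11.34 in that mouse and lowest in mouse 1 of feed K (10.76). The part of these cells or of the place of the segment in the members' spread was not tested.

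Further genes of the pathway gave the same picture between feeds. Of 88 listed genes, 80 were matched to the array, 71 were tested, and none passed limma's F test or the test of any pair of feeds after adjustment. At an unadjusted F test p under 0.05 there were 2 of 71, both in glutathione turnover, against 5.45% of all genes. Ggt1, the gamma-glutamyltransferase that degrades extracellular glutathione, was at 13.54, 13.93 and 13.66 on feed B, 14.07, 14.40 and 14.34 on feed K, and 14.12, 14.06 and 14.19 on feed G. All mice of feed B lay below those of the other feeds, and feed K exceeded feed B by 0.56 (SE 0.18, limma's adjusted p = 0.761). Such ranges without overlap were found for 10.0% of all genes between feeds K and B and for 10.9% between feeds G and B. Chac1, which degrades glutathione inside the cell (named 1810008K03Rik on the array), was detected on 0 of 3 arrays of feed B and on all arrays of feeds K and G. Its log2 signal was 5.43, 6.41 and 5.63 on feed B, 7.93, 7.26 and 8.81 on feed K, and 6.81, 8.14 and 6.37 on feed G. All mice of feed K lay above those of feed B, whereas mouse 11 of feed G lay below the undetected signal of mouse 8 of feed B. Chac1 passed the filter on detection through feeds K and G alone. As it was not detected on feed B, no fold against that feed is given. Neither feed K (limma's adjusted p = 0.761) nor feed G (adjusted p = 0.857) passed against feed B.

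By pairs of feeds, Ggt1, Chac1 and Selenoi, an enzyme of phospholipid synthesis, were higher under feed K than under feed B at an unadjusted p under 0.05 and no listed gene was lower, while 4.55% of all genes were higher and 1.96% lower. Chac1 was the 1 listed gene higher under feed G than under feed B, against 3.90% of all genes. Keap1, the repressor of Nrf2, was the 1 listed gene lower on feed G than on feed K (difference -0.46, SE 0.20, limma's adjusted p = 0.948), against 2.45% of all genes. No listed gene was higher in that comparison, against 2.24% of all genes. Over the list, the median difference (K less B, G less B and G less K) was 0.15, -0.01 and -0.16, and over all genes tested it was 0.05, 0.06 and -0.01.

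In uniformity the wider pathway resembled the array as a whole, with a median SD of 0.31 over the 55 listed genes detected on all 9 arrays and 30 of them within a 2-fold range. Over all 5992 genes detected on all 9 arrays the median SD was 0.29, and 57.7% stayed within that range. The steadiest by role were Selenof, a selenoprotein of the endoplasmic reticulum (SD 0.13, 1.30-fold range), Sod2, the mitochondrial superoxide dismutase (SD 0.15, 1.37-fold), Maff, a small Maf partner of Nrf2 (SD 0.16, 1.47-fold), and Blvrb, a biliverdin reductase (SD 0.18). Mitochondrial thioredoxin Txn2, the pentose phosphate enzyme G6pdx, glutathione synthetase Gss and the quinone reductase Nqo2 led their roles with an SD between 0.21 and 0.28.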

How the data were processed

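Jejunal RNA of 9 mice was hybridized to Applied Biosystems arrays, 1 mouse per array. The authors deposited per spot a signal intensity, corrected for background and spatially normalized, with a signal-to-noise score, a quality flag and an assay-normalized signal. The deposited series table equals that last column in all 297108 values, and what it divides by is not given in the sources used here. The submitters' processing notes name RMA. Failed spots (quality flag over 5000, 432 to 1045 per array) were removed. Intensities were quantile normalized (arithmetic mean), then put on the log2 scale, and probes of a gene were averaged. Genes detected (ratio of 3 or more) on at least 3 arrays were tested with limma 3.58.1 in R 4.3.3, by an F test and contrasts between feeds, with Benjamini-Hochberg adjustment over 9856 genes. Correlations used exact permutation tests (scipy 1.17.1). The fit was tested on simulated data. P-values measure the spread between single mice, and the number of arrays limits the precision. Members and lists, including the pathway and marker genes, were chosen with earlier results of these data known. The text names all members, the listed genes with an unadjusted p under 0.05, and the steadiest gene of each role. Older symbols were matched through the RefSeq table of GRCm38.p6, which also gave the gene positions. The place of a probe within its gene was not used here. Alternatives were median scaling, the deposited table, the brightest probe, other filters and variance models, and leaving out each array.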

Additional observations from a re-analysis of the deposited data

How the results depend on the processing

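No member passed limma's F test under any of the alternatives run (186 of 186 results kept their side of the threshold); with 3 mice per feed this says nothing of stability. For each member only the pair of feeds with its largest difference was followed, and for Ggt1 and Chac1 feed K against feed B. Of these results, 189 of 199 kept their sign, and none passed in either sign. The sign turned for Cat (G less K) without mouse 4 of feed K (-0.18) or mouse 4 of feed G (-0.042), for Gpx1 (G less B) without mouse 11 of feed G (-0.019), and for Hmox1 (G less B) without mouse 7 of feed B (-0.44). When each array was left out, these differences ran from -0.18 to 0.37 for Cat, from -0.019 to 0.30 for Gpx1 and from -0.44 to 0.90 for Hmox1. Those of Hmox1 are of signals near the background. For Gclc (K less B) the differences ran from -0.33 to 0.14, turning without mouse 10 of feed B (0.14) or mouse 3 of feed K (0.11). The sign of Gclc turned as well after median scaling (0.34) and in the deposited values (0.088). Gpx2 (G less B) turned after median scaling (0.19) and Gsr (G less K) in the deposited values (0.0031). Median scaling itself moved the median of all tested genes to 0.40, 0.53 and 0.11 (K less B, G less B and G less K), and the deposited values to 0.21, 0.29 and 0.07, so signs are relative to these shifts. After median scaling Gpx1 stood 0.71 above its level of feed B in feed G (limma's adjusted p = 0.267).

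Over all genes, the F test called 0, but 1 among genes detected on all 9 arrays, 1 with the unmoderated test, 0 with the exact permutation test (494 at an unadjusted p under 0.05, 537 with limma), and 0 to 3 when each array was left out. When each array was left out, the count was 0 to 10 for K less B and 0 to 3 for G less B. Both were highest without mouse 10 of feed B. Among genes detected on all 9 arrays it was 1 for G less B. No gene was called between feeds G and K under any of them (462 at an unadjusted p under 0.05 with limma, 1042 with array weights). Listed pathway genes at an unadjusted F test p under 0.05 were 2, and 8 after median scaling (537 and 1104 of 9856 genes). There was 1 with no filter on detection or among genes detected on all 9 arrays, and 1 to 6 with each array left out.

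The median SD of the members was 0.35, and 0.45 after median scaling, where that of all genes was 0.44. Pairs of members that passed by Pearson's r numbered 1, and 6 after median scaling (1 by Spearman's rho), 0 in the deposited values, 0 with feed means subtracted (a test in which no single pair could pass) and 0 to 1 when each array was left out. The pair of Cat and Gsr kept an r between -0.94 and -0.86 when each array was left out, and no longer passed without mice 7, 8 or 10 of feed B, 4 of feed K or 11 of feed G, with 8 mice remaining. The causes were not tested. No paired analysis was run, as each array held RNA of 1 mouse and the labels do not match mice across feeds. A batch as a block was not run because the files give no slide or scan date.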
